A study of Mus musculus with 19 samples.

Results

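The genes described here pattern the areas of the cerebral cortex: Nr2f1, Nr2f2, Emx1, Emx2, Sp8, Bhlhe22, Prdm8, Rorb and Fgfr3. They were chosen by name, with earlier results of these data known. Each was read from the probe set annotated to its symbol alone that had the highest mean over all 19 arrays. Of the 9 genes, 8 had such a probe set among the 18193 genes measured, and Bhlhe22 is not analysed here. All of them are nuclear regulators of transcription except Fgfr3, a receptor tyrosine kinase, so a heading of transcription factors covers it only as a gene of the same patterning pathway.

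RNA came from cortical projection neurons of C57BL/6 mice, backlabelled by green fluorescent microspheres and sorted by flow cytometry. Corticotectal projection neurons (CTPN), which project to the midbrain tectum, were collected at postnatal day 14 (P14). Corticospinal motor neurons (CSMN), which project to the spinal cord, and callosal projection neurons (CPN), which connect the hemispheres, were each collected at embryonic day 18 (E18) and at P3, P6 and P14. Each of the 9 groups had 2 arrays of independent collections, except CSMN at P3 with 3, and how many mice were pooled per collection is not given in the sources used here. In its sentence on the injections the protocol names visual cortex for CTPN and sensorimotor cortex for both other types, so neuron type and cortical area cannot be told apart in any comparison with CTPN.

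In the embryonic cortex, fibroblast growth factors and other morphogens from signalling centres at its edges set up gradients of transcription factors in dividing progenitors, and these gradients give each region its area identity. In mice Emx2 and Nr2f1 are graded towards the back of the cortex and Sp8 towards the front, Fgfr3 receives the growth factor signal, and Nr2f2 marks caudal cortex and many interneurons from the caudal ganglionic eminence. Prdm8, Bhlhe22 and Rorb act largely after neurons have left the cell cycle, and Rorb is best known from layer 4 of sensory areas.

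The sequences shown are the 250 bases before the annotated gene start, from RefSeq on build GRCm38.p6, for 4 of the members with called differences: Nr2f1 and Rorb, called lower in CSMN than in CPN as the mean of the postnatal stages, and Emx2 and Fgfr3, which fell in CPN between E18 and P14. They lie at chr13:78198874-78199123 (minus strand) for Nr2f1, chr19:19111197-19111446 (minus strand) for Rorb, chr19:59458440-59458689 (plus strand) for Emx2 and chr5:33721474-33721723 (plus strand) for Fgfr3. Each is written 5′ to 3′ on the gene's own strand, and capitals mark matches to 4 motifs searched on both strands: the nuclear receptor half-site AGGTCA, the E-box CANNTG, the GC box GGGCGG and the homeodomain core TAATTA.
Nr2f1: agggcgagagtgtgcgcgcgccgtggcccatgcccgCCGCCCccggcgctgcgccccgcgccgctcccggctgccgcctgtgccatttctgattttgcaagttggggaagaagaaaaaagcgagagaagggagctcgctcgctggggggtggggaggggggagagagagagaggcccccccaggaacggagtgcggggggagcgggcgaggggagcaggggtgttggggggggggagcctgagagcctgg
Rorb: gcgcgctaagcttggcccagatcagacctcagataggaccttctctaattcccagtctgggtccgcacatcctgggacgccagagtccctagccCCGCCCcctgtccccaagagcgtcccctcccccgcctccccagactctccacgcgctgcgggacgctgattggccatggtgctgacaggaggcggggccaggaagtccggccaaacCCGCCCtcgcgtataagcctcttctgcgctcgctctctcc
Emx2: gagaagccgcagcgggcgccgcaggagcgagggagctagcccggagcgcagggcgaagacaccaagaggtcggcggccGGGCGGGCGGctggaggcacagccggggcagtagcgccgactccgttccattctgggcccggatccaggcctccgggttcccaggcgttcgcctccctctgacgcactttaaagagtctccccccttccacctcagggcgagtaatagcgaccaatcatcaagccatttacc
Fgfr3: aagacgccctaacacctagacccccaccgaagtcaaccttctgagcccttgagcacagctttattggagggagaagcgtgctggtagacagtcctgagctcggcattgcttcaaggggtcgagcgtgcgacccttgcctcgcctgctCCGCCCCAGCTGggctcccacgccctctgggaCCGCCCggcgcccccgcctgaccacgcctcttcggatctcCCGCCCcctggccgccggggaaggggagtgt
The Nr2f1 window held 1 GC box, whose first base lay 214 bases before the start. The Rorb window held 2 GC boxes, 156 and 40 bases before the start. In the Emx2 window 2 GC boxes overlapped, at 172 and 168 bases, and the Fgfr3 window held 3, at 103, 71 and 31 bases, the first of them adjoining an E-box at 97 bases. A GC box was present in 32.7% of all 32851 RefSeq windows of this length, an E-box in 66.2%, a half-site in 14.0% and a homeodomain core in 4.84%. A match is a run of letters and not a measured binding site, and no member was chosen or tested on it.

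Levels are log2 values of the deposited table, and levels of different genes are not compared because each probe set has its own brightness. Array medians lay between 6.42 and 6.62, and fold values are given only where every array compared lay above 6.62. The sorted types were set against their defining markers: Bcl11b, Fezf2, Crym and Ldb2, genes of subcerebral neurons, were all higher in CTPN than in CPN at P14, and all 4 were higher in CSMN than in CPN at P3, P6 and P14, while Crym did not pass at E18. The callosal and upper-layer genes Cux2, Lpl and Cux1 were all lower in CSMN than in CPN as the mean of the postnatal stages and at P6, but only 2 of 3 passed at E18 and P14 and 1 at P3. Between CTPN and CPN limma called 0 of these 3, with differences of -2.86 for Cux2, -1.76 for Lpl and -1.14 for Cux1 (adjusted p = 0.0691, 0.0847 and 0.119). Markers of other cells were not evenly spread. For 9 progenitor and dividing-cell markers the mean level reached 11.51 and 11.42 in CPN at E18, while all other arrays lay between 5.98 and 7.92. The 2 CSMN P14 arrays differed most from each other, with a root mean square deviation from their group mean of 0.465 over all genes, against 0.0918 to 0.294 in the other arrays. Their mean of 4 microglia markers was 9.88 in replicate 1 and 7.67 in replicate 2, and elsewhere it lay between 7.45 and 8.74 except at 9.81 in CSMN P6 replicate 2 and 10.16 in CPN E18 replicate 1. The part of such cells in the members' values was not tested. Where 1 of 2 arrays of a group is left out below, the remaining one is assumed to vary like the other groups. In every comparison leaving out at least 1 of the arrays lowered the calls over all genes, so a lost call is not particular to a member. Without CSMN P14 replicate 1 the calls over all genes increased widely, to 5143 against 35 between CTPN and CSMN, to 6256 against 253 between CSMN and CPN at P14, to 5262 against 1509 in the 4-stage mean, to 3098 against 747 in the postnatal mean and to 8107 against 2295 between P14 and P3 in CSMN, so a member's call without it is read against those counts. Fewer cells of a type and less RNA per cell cannot be told apart in these samples.

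The first question was which of the patterning genes differed between CSMN and CPN. As the mean of 4 stages, 4 of the 8 measured members passed the limma test with Benjamini-Hochberg adjustment over all genes, and all 4 were lower in CSMN: Nr2f1, Emx1, Emx2 and Fgfr3. Over all genes 8.29% passed in either direction and 5.34% as lower in CSMN. The median difference of the 8 members was -0.64 on the log2 scale, beside 0.06 over all genes tested. As the mean of the 3 postnatal stages, Nr2f1 and Rorb passed, both lower in CSMN, where 4.11% of all genes passed, 2.02% as lower, and the median was -0.55 for the members and 0.04 for all genes. At single stages 3 members passed at E18 (Nr2f1, Emx2 and Fgfr3, all lower; 12.9% of all genes passed, 8.94% as lower) and Nr2f1 alone at each later stage, where 0.874% of all genes passed at P3, 1.07% at P6 and 1.39% at P14. The stages enter the means, so these counts share arrays. The arrays of the types did not overlap for 7 members at E18, 5 at P3, 7 at P6 and 6 at P14, where 52.4%, 34.2%, 44.4% and 32.4% of all genes did not overlap.

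**Figure D1:**
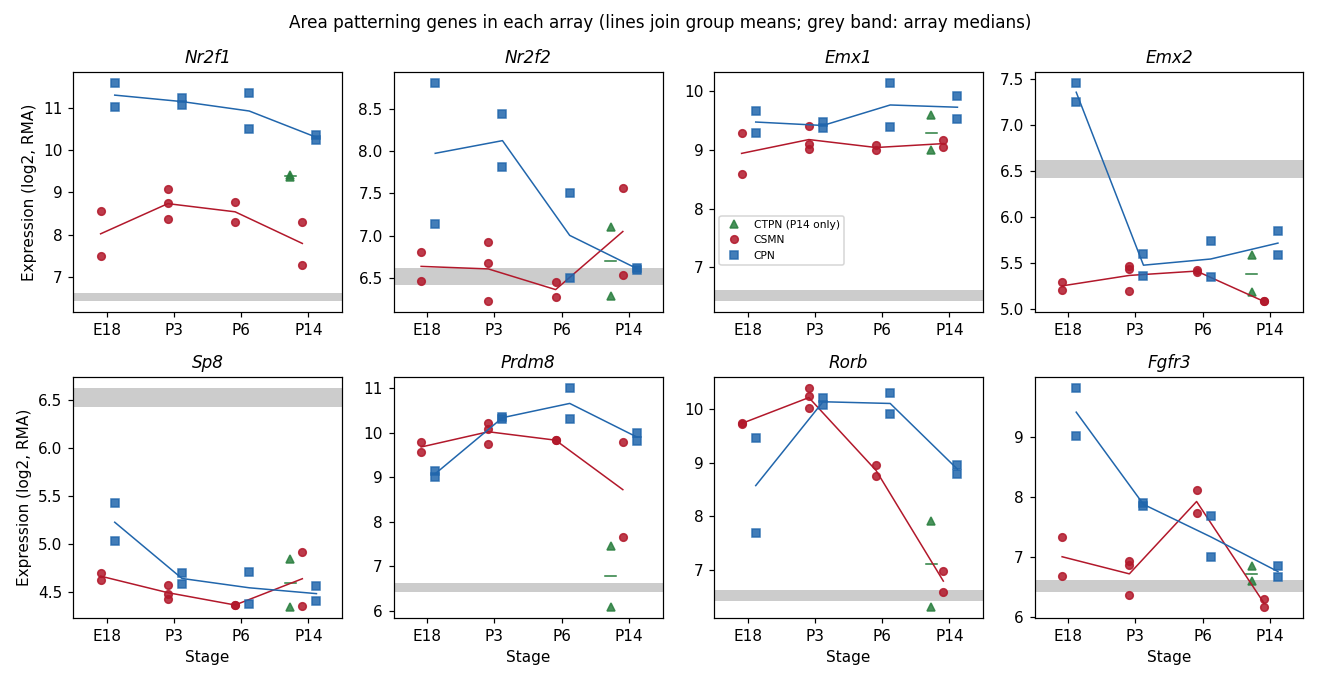
Log2 expression of each measured member in every array, by stage, with CTPN (green triangles, P14 only), CSMN (red circles) and CPN (blue squares). Lines join group means, a green bar marks the CTPN mean and the grey band spans the array medians of 6.42 to 6.62. Nr2f1 is lower in every CSMN array than in every CPN array, Rorb in CSMN descends to 6.98 and 6.59 at P14, and Emx2 stands above the band in the CPN E18 arrays alone.

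Nr2f1, also called COUP-TFI, is an orphan nuclear receptor that in mice restrains motor area and corticospinal identity in sensory cortex. Its gene spans chr13:78188971-78198873, and this and the other gene spans are those of RefSeq on GRCm38.p6. In CSMN it read 7.49 and 8.55 at E18, 8.74, 8.38 and 9.09 at P3, 8.30 and 8.78 at P6, then 8.31 and 7.28 at P14. In CPN it read 11.59 and 11.01 at E18, 11.22 and 11.07 at P3, 11.36 and 10.49 at P6, then 10.24 and 10.36 at P14. The types did not overlap at any of the 4 stages, and the highest CSMN array of all, at 9.09, lay below the lowest CPN array of all, at 10.24. The difference was -3.28 ± 0.40 (SE) at E18, a 9.71-fold lower level in CSMN (adjusted p = 6.72e-05). It was -2.41 ± 0.37 at P3 (5.33-fold, adjusted p = 0.00446), -2.38 ± 0.40 at P6 (5.22-fold, adjusted p = 0.00747) and -2.51 ± 0.40 at P14 (5.69-fold, adjusted p = 0.00522).

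The gap in Nr2f1 was present at each age, and neither type changed past the test with age. Between P14 and E18 the change was -0.23 ± 0.40 in CSMN (adjusted p = 0.759) and -0.998 ± 0.40 in CPN (adjusted p = 0.106), and the difference between these changes was 0.77 ± 0.57 (adjusted p = 0.504). The CPN change passed with cyclic loess normalization (-1.10, adjusted p = 0.041), and the change in CSMN between P3 and P14 passed without CSMN P14 replicate 1 (-1.46, adjusted p = 0.0103, against -0.94 ± 0.37 and 0.107 with it). In order of group means CPN came first from E18 to P14, then CTPN, then the CSMN groups at P3, P6, E18 and P14. Neighbouring groups overlapped within the first 3 CPN stages and within all CSMN stages, and did not overlap between CPN at P6 and P14, between CPN at P14 and CTPN, or between CTPN and CSMN at P3. The single-stage calls rested on few arrays, while the differences kept most of their size. Calls over all genes also fell without CPN P3 replicate 2 at P3, CSMN P6 replicate 1 at P6 and CPN P14 replicate 1 at P14. The P3 call was lost without either CPN P3 array, at -2.34 and -2.49 (adjusted p = 0.0882 and 0.0694). The P6 call was lost without CPN P6 replicate 1 or CSMN P6 replicate 1, at -1.95 and -2.14 (0.0985 and 0.136). The P14 call was lost without either CPN P14 array, at -2.57 and -2.45. It was also lost with array weights, at -2.51 (adjusted p = 0.478), where 2 of all genes were called against 253 without weights.

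Nr2f2, or COUP-TFII, is the closest relative of Nr2f1 (chr7:70351946-70366746). It read 6.46 and 6.81 in CSMN and 7.14 and 8.81 in CPN at E18. At P3 it read 6.68, 6.22 and 6.92 in CSMN and 8.44 and 7.82 in CPN. At P6 the values were 6.45 and 6.28 in CSMN and 6.496 and 7.51 in CPN, and at P14 they were 6.54 and 7.56 in CSMN and 6.60 and 6.62 in CPN. CSMN lay below CPN without overlap at E18, P3 and P6 and overlapped it at P14. The differences, -1.34 ± 0.50 at E18 (adjusted p = 0.0906), -1.52 ± 0.45 at P3 (0.198), -0.64 ± 0.50 at P6 and 0.44 ± 0.50 at P14, did not pass. Without CPN E18 replicate 1 the E18 value was -2.17, and without replicate 2 it was -0.50. The P3 value passed with array weights (-1.76, adjusted p = 7.24e-05), a setting that called 3176 of all genes at P3 against 159 without weights. Within CPN, Nr2f2 at P14 differed by -1.36 ± 0.50 from E18 (adjusted p = 0.0731) and by -1.51 ± 0.50 from P3 (adjusted p = 0.0839), values that passed in 4 and 6 of 26 other settings. In CSMN these differences were 0.41 ± 0.50 and 0.44 ± 0.45.

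Interneuron markers moved in some of the same arrays as Nr2f2 and not in others. The mean of 8 such markers was 6.61 and 6.76 in CSMN against 7.22 and 8.06 in CPN at E18, and between 6.26 and 7.06 in CSMN against 7.41 and 7.45 in CPN at P3. In CSMN at P14 the array with Nr2f2 at 7.56 had a marker mean of 7.58, and the other, at 6.54, had 6.88. The CPN arrays at P14 had marker means of 7.63 and 7.33, near those at P3, while Nr2f2 read 6.60 and 6.62 there. Between P14 and P3 in CPN, limma called 0 of the 8 markers. At E18 4 of the 8 markers passed as lower in CSMN (Slc32a1, Dlx1, Lhx6 and Npy) and at P3 Npy did, while Dlx2 stayed below the array medians in every group. Their part in the Nr2f2 values was not tested. Of 5 markers of caudal interneurons (Adarb2, Htr3a, Vip, Prox1 and Calb2) limma called 0 between CSMN and CPN at any stage, and their mean ranged from 6.28 to 6.97 in CSMN and from 6.15 to 7.28 in CPN.

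Rorb, the third nuclear receptor, promotes the layer 4 fate of cortical neurons in mice (chr19:18930609-19111196). In CSMN it read 9.74 and 9.73 at E18, 10.25, 10.39 and 10.02 at P3, 8.75 and 8.96 at P6, then 6.98 and 6.59 at P14. In CPN it read 9.47 and 7.68 at E18, 10.07 and 10.21 at P3, 10.30 and 9.92 at P6, then 8.97 and 8.79 at P14. CSMN stood above CPN without overlap at E18, overlapped it at P3, and stood below it without overlap at P6 and P14. CSMN minus CPN was 1.16 ± 0.49 at E18 (adjusted p = 0.13), 0.08 ± 0.45 at P3, -1.25 ± 0.49 at P6 (0.461) and -2.09 ± 0.49 at P14 (0.0505), none of them past the threshold of 0.05. The P14 value passed in 9 of 27 other settings, and the E18 value was 2.05 and passed (adjusted p = 0.0154) without CPN E18 replicate 1 but was 0.27 (adjusted p = 0.714) without replicate 2. The mean of the 3 postnatal stages was -1.09 ± 0.27 (adjusted p = 0.0361). That call was lost in 16 of 27 other settings, with values between -1.17 and -0.92.

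Rorb also changed with age. In CSMN it fell by 3.43 between P3 and P14 (SE 0.45, adjusted p = 0.000256). Its level at P14 was 2.95 lower than at E18 (-2.95 ± 0.49, adjusted p = 0.000952, and 0.149 with array weights). Array weights called 259 of all genes between P14 and E18 in CSMN, against 2751 without weights. In CPN the corresponding values were -1.26 ± 0.49 (adjusted p = 0.158) and 0.31 ± 0.49 (adjusted p = 0.796). The first of these limma values passed with array weights (adjusted p = 0.00113) and with the mean of all probe sets (adjusted p = 0.0362). Array weights called 5436 of all genes in that comparison, against 1480 without weights. The change between E18 and P14 itself differed between the types, by -3.25 ± 0.69 (CSMN change minus CPN change, adjusted p = 0.0127), and the 2 CPN arrays at E18 lay far apart, at 9.47 and 7.68. Between P3 and P14, where the CPN arrays lay close together, the difference in change was -2.17 ± 0.66 and did not pass (adjusted p = 0.348). Of all genes, 12.6% passed in CSMN between P14 and P3 and 15.1% between P14 and E18.

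Of 3 layer 4 markers, none was called lower in CSMN between P3 and P14. Their mean was 5.45 to 5.70 in CSMN at P3 and 6.11 and 6.24 at P14. Rspo1 rose in CSMN between P3 and P14, by 1.29 ± 0.17 (adjusted p = 0.000261), and Kcnh5 (0.41 ± 0.27) and Scnn1a (0.06 ± 0.20) did not pass. Between the types at P14, Kcnh5, a potassium channel gene, was lower in CSMN (-2.26 ± 0.30, adjusted p = 0.00131), Rspo1 was higher (0.81 ± 0.19, adjusted p = 0.0454) and Scnn1a did not pass. Rspo1 and Kcnh5 lay below the array medians in every CSMN group.

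**Figure D2:**
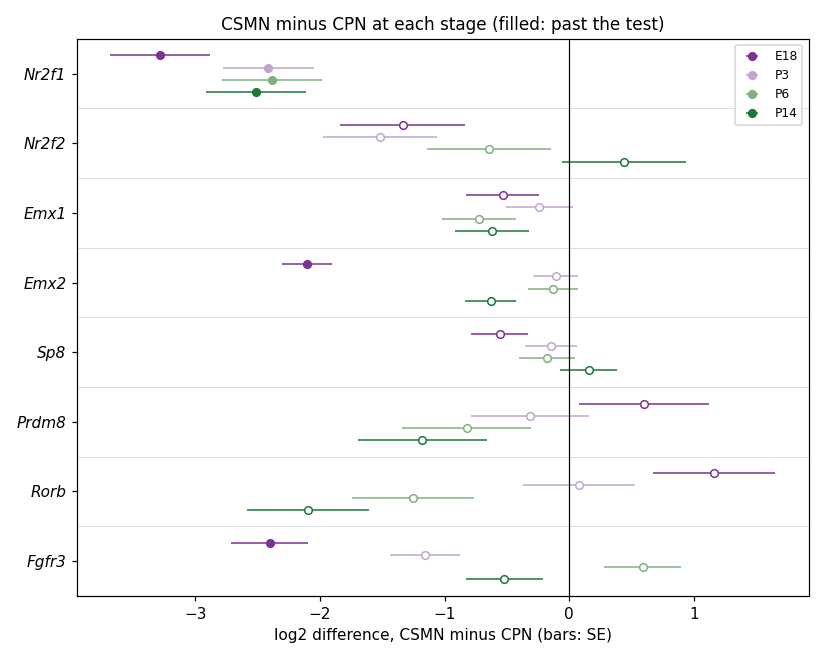
Log2 difference of CSMN minus CPN for each measured member at E18, P3, P6 and P14, with bars of 1 SE from the limma model and filled points past the adjusted threshold of 0.05. Nr2f1 is filled at all 4 stages, Emx2 and Fgfr3 at E18, and Rorb moves from 1.16 at E18 to -2.09 at P14.

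The next members act in dividing progenitors. Emx2, a homeodomain factor graded towards the back of the cortex, lies at chr19:59458690-59465357. In CSMN it read 5.21 and 5.30 at E18 and between 5.09 and 5.47 at the later stages. In CPN it read 7.25 and 7.46 at E18, 5.60 and 5.36 at P3, 5.74 and 5.36 at P6, then 5.59 and 5.85 at P14. Only the CPN E18 arrays lay above the array medians, so no fold is given. Emx2 was lower in CSMN at E18, with a difference of -2.10 ± 0.20 (adjusted p = 7.27e-06), and the later differences of -0.11 ± 0.18, -0.13 ± 0.20 and -0.63 ± 0.20 at P3, P6 and P14 did not pass. The mean of 4 stages (-0.74 ± 0.10, adjusted p = 0.000197) was called with the E18 arrays in it, and the mean of the postnatal stages (-0.29 ± 0.11, adjusted p = 0.227) was not.

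Emx1, its close relative, is expressed by cortical progenitors and also kept by their excitatory neurons (chr6:85187931-85204463). In CSMN it read 9.29 and 8.60 at E18, 9.41, 9.03 and 9.10 at P3, 8.996 and 9.09 at P6, then 9.18 and 9.04 at P14. In CPN it read 9.67 and 9.29 at E18, 9.47 and 9.37 at P3, 10.15 and 9.39 at P6, then 9.92 and 9.54 at P14. The types did not overlap at P6 and P14 and overlapped at E18 and P3. The mean of 4 stages was -0.53 ± 0.14, a 1.44-fold lower level in CSMN (adjusted p = 0.0345). The difference was of like size after birth (-0.53 ± 0.17) but missed the threshold there (adjusted p = 0.107), and the 4-stage call was lost in 12 of 27 other settings.

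Sp8, a zinc finger factor that promotes frontal identity, stayed below the array medians in every array (chr12:118846288-118852578). It read 4.70 and 4.63 in CSMN and 5.03 and 5.43 in CPN at E18, and between 4.36 and 4.92 in CSMN and 4.38 and 4.72 in CPN later. None of its type differences passed, the largest being -0.56 ± 0.23 at E18 (adjusted p = 0.117). In CPN it was lower at P14 than at E18, with a difference of -0.74 ± 0.23 (adjusted p = 0.0317), a call lost without CPN E18 replicate 2 or either CPN P14 array (adjusted p = 0.261, 0.186 and 0.0898). A difference this far below the medians is a change in a dim signal.

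Fgfr3, the receptor that carries the fibroblast growth factor signal, is also an astrocyte and radial glia gene (chr5:33721724-33737068). In CSMN it read 6.68 and 7.33 at E18, 6.37, 6.86 and 6.93 at P3, 7.74 and 8.11 at P6, then 6.31 and 6.17 at P14. In CPN it read 9.80 and 9.01 at E18, 7.85 and 7.89 at P3, 6.99 and 7.68 at P6, then 6.85 and 6.67 at P14. CPN descended stage by stage, while CSMN had its highest arrays at P6, the one stage at which CSMN lay above CPN. The type difference was -2.40 ± 0.31 at E18, a 5.29-fold lower level in CSMN (adjusted p = 0.000103). It was -1.16 ± 0.28 at P3 (adjusted p = 0.0817), 0.59 ± 0.31 at P6 (0.81) and -0.52 ± 0.31 at P14 (0.427), none of them past the test. The P3 value passed with array weights (-1.06, adjusted p = 0.000136), which called 3176 of all genes at P3 against 159 without weights.

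Emx2 and Fgfr3 fell together in CPN. P14 minus E18 was -1.64 ± 0.20 for Emx2 (adjusted p = 3.48e-05) and -2.65 ± 0.31 for Fgfr3, a 6.27-fold lower level (adjusted p = 2.04e-05). With Sp8 they made 3 of 8 members past the test, where 19.2% of all genes passed and 8.98% as lower. Between P3 and P14 only Fgfr3 of the members passed in CPN (-1.12 ± 0.31, 2.17-fold, adjusted p = 0.0373; 8.13% of all genes), and that call was lost in 6 of 26 other settings. In CSMN the changes between E18 and P14 were -0.17 ± 0.20 for Emx2 and -0.77 ± 0.31 for Fgfr3 and did not pass. The change differed between the types by 1.47 ± 0.28 for Emx2 (adjusted p = 0.00669) and 1.88 ± 0.44 for Fgfr3 (adjusted p = 0.0211), so that with Rorb 3 of 8 members passed this test and 5.18% of all genes did. With array weights, which let noisy arrays count less, none of the 3 passed (adjusted p = 0.305 for Emx2, 0.373 for Fgfr3 and 0.194 for Rorb). Over all genes that setting called 184 in this test, against 943 without weights. The Fgfr3 value was also lost without CPN E18 replicate 1, CSMN E18 replicate 1 or either CPN P14 array, at 1.49 to 1.97, and the Rorb value without CPN P14 replicate 1 (adjusted p = 0.0512). For the change between P3 and P14, limma called 0 of 8 members (0.115% of all genes), and 2 members, Nr2f2 and Rorb, had an unadjusted p under 0.05, as did 9.15% of all genes.

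**Figure D3:**
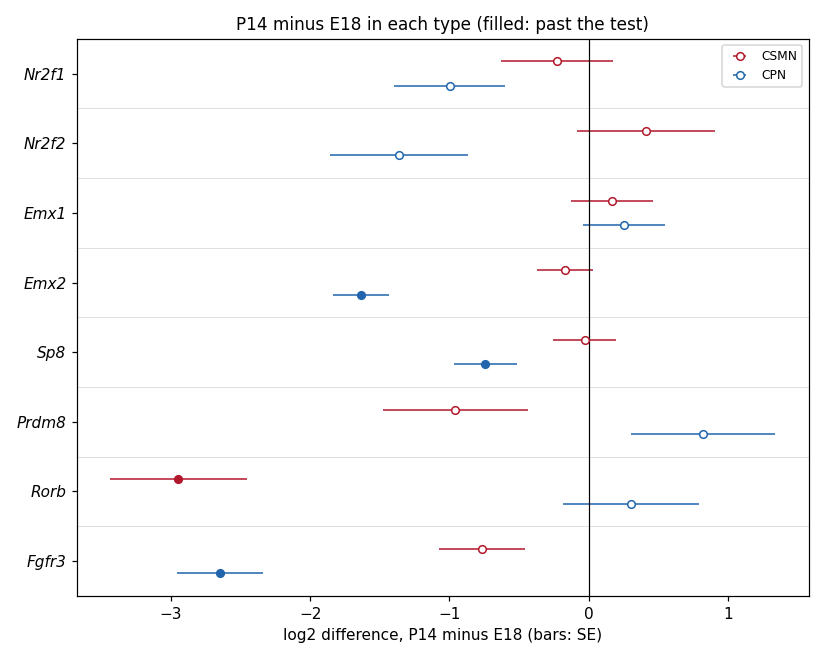
Log2 difference of P14 minus E18 for each measured member in CSMN (red) and CPN (blue), with bars of 1 SE and filled points past the adjusted threshold of 0.05. Rorb is filled in CSMN at -2.95, and Emx2, Sp8 and Fgfr3 in CPN at -1.64, -0.74 and -2.65.

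Markers of progenitors and astrocytes moved with these members in some comparisons and not in others. At E18 8 of 9 progenitor and dividing-cell markers, among them Sox2 and Eomes, passed as lower in CSMN than in CPN, and 8 of 9 were lower in CPN at P14 than at E18. Between P3 and P14 in CPN 5 of the 9 passed as lower, as did Fgfr3. Emx2 (0.24 ± 0.20) and Sp8 (-0.16 ± 0.23) did not pass there. In CSMN at E18 6 of the 9 lay below the array medians in every array. The mean of 5 astrocyte markers was 6.66 and 6.85 in CSMN against 9.32 and 9.73 in CPN at E18, and 8.42 and 8.49 in CSMN against 7.15 and 8.03 in CPN at P6. Of the 5, 3 passed as lower in CSMN at E18, 1 at P3 and 1 at P14, and limma called 0 at P6. Fgfr3 was high in the groups with high astrocyte means, at 7.74 and 8.11 in CSMN at P6 and at 9.80 and 9.01 in CPN at E18. Its type difference at P6 did not pass. The part of such cells in the Emx2, Sp8 and Fgfr3 values was not tested. In the mean of the postnatal stages limma called 0 of the 9 progenitor markers between the types. Emx2 (-0.29 ± 0.11) and Fgfr3 (-0.36 ± 0.17) did not pass there, though at P3 Fgfr3 lay lower in CSMN without overlap (-1.16 ± 0.28).

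**Figure D4:**
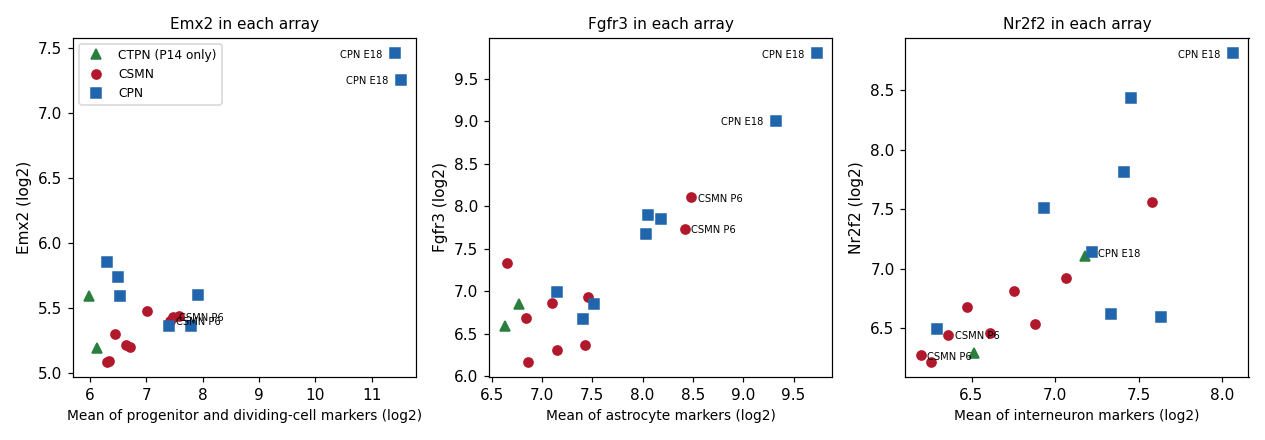
Each array's level of Emx2, Fgfr3 and Nr2f2 (vertical axes, log2) against its mean of progenitor and dividing-cell, astrocyte and interneuron markers (horizontal axes, log2), for CTPN, CSMN and CPN. The CPN E18 arrays stand apart at progenitor marker means of 11.51 and 11.42, and the CSMN P6 arrays lie at astrocyte means of 8.42 and 8.49 with Fgfr3 at 7.74 and 8.11.

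Prdm8 encodes a repressor of the PRDM family that in mice works with Bhlhe22 in postmitotic cortical neurons (chr5:98167203-98187454). In CTPN it read 6.09 and 7.46. In CSMN it read 9.79 and 9.56 at E18, 10.22, 10.09 and 9.75 at P3, 9.83 and 9.83 at P6, then 9.79 and 7.65 at P14. In CPN it read 9.005 and 9.15 at E18, 10.36 and 10.31 at P3, 10.99 and 10.31 at P6, then 9.99 and 9.81 at P14. Both CTPN arrays lay below all 17 others, the nearest being the CSMN P14 array at 7.65. Between CSMN and CPN the difference was 0.60 ± 0.52 at E18, -0.32 ± 0.47 at P3, -0.82 ± 0.52 at P6 and -1.18 ± 0.52 at P14, none past the test. The P14 value was -2.24 (adjusted p = 0.00151) without CSMN P14 replicate 1 and -0.11 without replicate 2. Without replicate 1 Prdm8 also passed as lower in CSMN in the 4-stage mean (-0.70, adjusted p = 0.0106) and the postnatal mean (-1.13, adjusted p = 0.00276), and as lower at P14 than at P3 in CSMN (-2.36, adjusted p = 0.000363, against -1.30 ± 0.47 and 0.0886 with it).

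CTPN at P14 differed from CPN in Prdm8 alone among the members, by -3.13 ± 0.52 (adjusted p = 0.00718). Of all genes 1.06% passed. The call was lost without either CPN P14 array (-3.03 and -3.22) or CTPN replicate 1 (-2.44). Calls over all genes also fell without CPN P14 replicate 1. Rorb, at 6.30 and 7.92 in CTPN against 8.97 and 8.79 in CPN, differed by -1.77 ± 0.49 and did not pass (adjusted p = 0.141), though it did in 4 of 27 other settings. Nr2f1, at 9.36 and 9.40 in CTPN against 10.24 and 10.36 in CPN, differed by -0.92 ± 0.40 (adjusted p = 0.637). The groups did not overlap for these 3 members, and over all genes 41.4% did not overlap.

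Against CSMN at P14, limma called 0 of 8 members in CTPN, where 0.192% of all genes passed. Nr2f1 and Prdm8 had an unadjusted p under 0.05, as did 8.81% of all genes. Nr2f1 read 9.36 and 9.40 in CTPN against 8.31 and 7.28 in CSMN, a 3.01-fold higher mean (1.59 ± 0.40, adjusted p = 0.202). It was called without CSMN P14 replicate 1 (2.11, adjusted p = 0.00374) and was 1.07 (adjusted p = 0.517) without replicate 2. Prdm8 differed by -1.95 ± 0.52 (adjusted p = 0.241), by -3.01 (adjusted p = 0.0103) without CSMN P14 replicate 2 and by -0.88 (adjusted p = 0.122) without replicate 1. Rorb differed by 0.32 ± 0.49 and overlapped. Emx1 (9.60 and 8.99), Emx2 (5.59 and 5.19), Sp8 (4.35 and 4.84), Nr2f2 (6.29 and 7.11) and Fgfr3 (6.59 and 6.84) in CTPN differed from neither other type past the test. Both comparisons share the CTPN arrays.

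**Figure D5:**
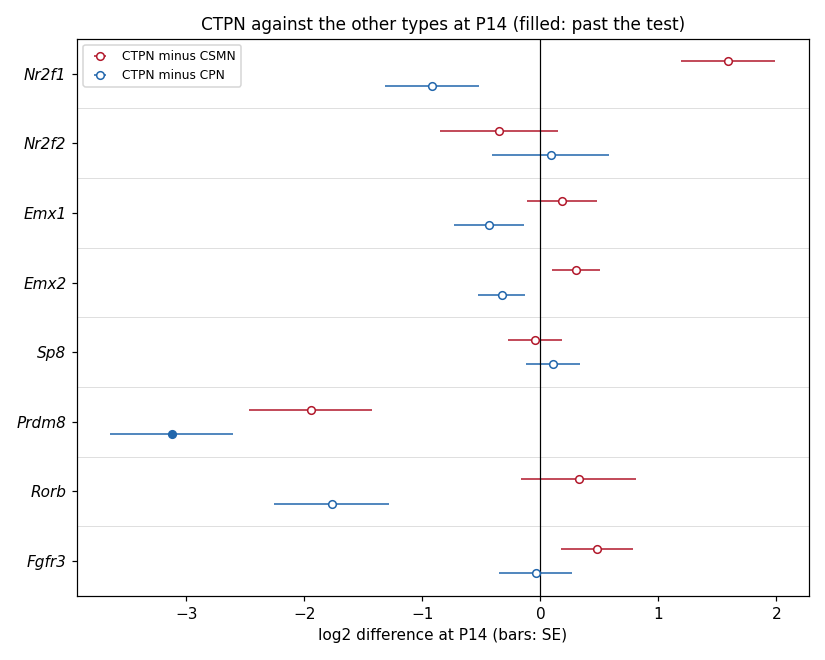
Log2 difference at P14 of CTPN minus CSMN (red) and CTPN minus CPN (blue) for each measured member, with bars of 1 SE and filled points past the adjusted threshold of 0.05. The one filled point is Prdm8 in CTPN minus CPN at -3.13, and Nr2f1 lies at 1.59 above CSMN and -0.92 below CPN.

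The arrays hold 9 further probe sets of the measured members, tested in the same model over 34945 probe sets. They belong to Nr2f2 (5), Rorb (2), Emx1 (1) and Fgfr3 (1). One of the other Rorb probe sets fell in CSMN between P3 and P14 by 2.07 ± 0.41 (adjusted p = 0.00575) and the other by 1.11 ± 0.32 (adjusted p = 0.0432), so all 3 Rorb probe sets passed there. In CPN over the same span the first also fell, by 1.86 ± 0.44 (adjusted p = 0.0213), so its difference in change was -0.20 ± 0.60 (adjusted p = 0.906), unlike the -2.17 of the brightest probe set. The first also passed between CSMN and CPN, at 1.496 ± 0.44 at E18 (adjusted p = 0.0459) and -1.46 ± 0.25 as the postnatal mean (adjusted p = 0.00377), and between CTPN and CPN at -2.11 ± 0.44 (adjusted p = 0.0432), while the second passed in none of these 3. For Nr2f2, one probe set that stayed at or below 6.55 was lower in CSMN at E18 (-0.92 ± 0.21, adjusted p = 0.013), at P3 (-1.49 ± 0.19, adjusted p = 0.00263) and in the 4-stage mean (-0.71 ± 0.10, adjusted p = 0.000587). It and 2 other Nr2f2 probe sets, none above 6.55 in any array, were lower at P14 than at P3 in CPN, at -1.30, -1.32 and -1.54 (adjusted p = 0.00173, 0.0387 and 0.0488). The second Fgfr3 probe set, at most 7.05 in any array, did not share the E18 difference (0.38 ± 0.23) or the decline in CPN (-0.11 ± 0.23). The second Emx1 probe set, with a mean of 5.91, differed by 0.34 ± 0.16 in the 4-stage mean and did not pass.

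Other genes of area patterning were read from a list of 35, of which 31 were measured. Between CSMN and CPN 4 were higher and 5 lower as the postnatal mean, and 22 did not pass. The 4 largest differences were in the LIM homeobox gene Lhx2 (-2.83 ± 0.33), the cofactor gene Lmo4 (-1.80 ± 0.19), the T-box gene Tbr1 (-1.33 ± 0.32) and the growth factor gene Fgf18 (1.31 ± 0.22). At E18 1 was higher and 6 lower in CSMN, led by Lhx2 (-4.52 ± 0.59), Dmrta2 (-4.41 ± 0.24), Fgfr1 (-3.50 ± 0.28) and the feedback inhibitor Spry2 (-3.26 ± 0.21). In CPN between E18 and P14, 5 rose and 3 fell, with Dmrta2 at -4.20 ± 0.24, Fgfr1 at -3.81 ± 0.28, Fgfr2 at -2.18 ± 0.29 and Lmo4 at 1.58 ± 0.33. In CSMN over the same span 4 rose: Etv5, an effector of fibroblast growth factor signalling (3.19 ± 0.55), Spry2 (2.62 ± 0.21), the cadherin Cdh8 (2.02 ± 0.35) and the ephrin Efna5 (0.98 ± 0.25). The shares of all genes past these tests were 4.11% in the postnatal mean, 12.9% at E18, 19.2% between E18 and P14 in CPN and 15.1% in CSMN. The 4 of 31 listed genes in CSMN were a smaller share than that over all genes.

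The listed genes at P14 gave few calls for CTPN. Rora, the paralog of Rorb, was higher in CTPN than in CSMN (9.60 against 7.18 as group means, 2.43 ± 0.34, adjusted p = 0.00906), and it was the one listed gene past that test. Against CPN, Fgfr1 was higher (1.31 ± 0.28, adjusted p = 0.0352) and Lmo4 lower (-1.64 ± 0.33, adjusted p = 0.0271) in CTPN. The shares of all genes past these tests were 0.192% against CSMN and 1.06% against CPN. The median difference of the 31 listed genes was 0.06 in the postnatal comparison of CSMN with CPN and 0.01 at E18, beside 0.04 and 0.10 over all genes.

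The genes with the most similar pattern were taken as the 3 highest Pearson correlations of the 9 group means, among 5325 genes above the median brightness whose means spanned at least 1 on the log2 scale. All points share the same arrays and normalization, and with 9 points many genes correlate highly. For Nr2f1 they were Zkscan17 (r = 0.97), Dcc (0.96) and Lhx2 (0.96). For Emx1 they were Cux2 (0.97), Gria4 (0.96) and Rusf1 (0.96), and for Nr2f2 they were Npy (0.90, on the interneuron marker list), Pcif1 (0.88) and Lgals1 (0.88). Fgfr3 was closest to Plpp3 (0.98), Slc1a3 (0.97) and Ednrb (0.97), of which Slc1a3 is on the astrocyte marker list. Emx2 was closest to Ctdsp2 (0.98), Mcm2 (0.97) and Unc119b (0.97), and Sp8 to Irf3, Hps1 and Lipg (0.96 each). Lamb1 headed the list of both Prdm8 (0.91, with Foxo1 at 0.89 and Lhfp at 0.87) and Rorb (0.96, with Ercc8 and Zfp715 at 0.94). Among the members themselves the highest correlations were those of Emx2 with Fgfr3 (0.84), Emx2 with Sp8 (0.84), Nr2f1 with Emx1 (0.84) and Prdm8 with Rorb (0.83).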

How the data were processed

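RNA of sorted neurons was hybridised to 19 Affymetrix Mouse Genome 430 2.0 arrays. The deposited table holds log2 values that the authors made with RMA, per the submitters' processing notes, and no detection call or scanner file was used here, so array number limits precision. Of 45101 probe sets, 64 are controls, 34945 have 1 gene symbol in the platform annotation, 932 have several and 9160 have none. For each of 18193 genes the probe set with the highest mean was fitted with limma 3.58.1 (R 4.3.3) as 1 mean per group over all arrays (10 residual degrees of freedom), and p-values were Benjamini-Hochberg adjusted over all genes in each comparison, with a threshold of 0.05. The fit was tested on simulated data. Between CSMN and CPN at single stages it recovered 25 to 39% of log2 changes of 1 and 80 to 98% of log2 changes of 2. For the difference in change it recovered 10% and 64% of these sizes from E18, and 3% and 49% from P3. False calls made up at most 9.76% of calls. A member that did not pass is therefore not shown to be unchanged. Genes are described by the deposited symbols. Named are all members, up to 4 other listed genes per comparison with the largest difference past the threshold, and 3 similar genes per member, passing over clone-number symbols. Members and lists were chosen with earlier results of these data known. Replicates were independent collections, per the labels. Alternatives were quantile and cyclic loess normalization, a brightness filter, other probe set rules, an intensity trend, array weights, a replicate block and leaving out each array. Figures were drawn with matplotlib 3.10.9.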

Additional observations from a re-analysis of the deposited data

Results flagged for a closer look

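For 3 members the change between E18 and P14 differed between the types by the limma interaction test. CSMN change minus CPN change was 1.47 for Emx2, -3.25 for Rorb and 1.88 for Fgfr3 on the log2 scale. For Emx2 and Fgfr3 the CPN level at E18 was high, in the arrays where progenitor and dividing-cell markers were high too, and the part of such cells was not tested. For Rorb the CSMN level of the brightest probe set fell, while its CPN level did not change past the test. The CPN E18 arrays lay at 9.47 and 7.68. One other Rorb probe set gave a difference in change of -1.11 ± 0.50 in limma (adjusted p = 0.255). Its change in CSMN was -0.92 ± 0.35 (adjusted p = 0.106), so it passed neither test. With array weights none of the 3 members passed the interaction test, and 184 of all genes did, against 943 without weights.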

How the results depend on the processing

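Of 2968 values of single members under other settings, 2849 kept their side of the threshold, 56 no longer passed and 63 newly passed. Of the 2849, 53 changed sign without passing in either setting, among them Nr2f2 between CSMN and CPN at P14, and 0 of the called values changed sign. Nr2f1 was called in the 4-stage mean, the postnatal mean and at E18 in all 27 settings, and Emx2 and Fgfr3 in the 4-stage mean and at E18 in all 26 in which they were tested, since both were dimmer than the brightness filter. The counts of members called that moved by more than 1.5 times were these, and single members also changed sides where a count moved by less. Quantile normalization called 5 at E18, 2 for the type difference at P14 and 2 for the change from E18 to P14 in CSMN. Cyclic loess and the intensity trend each called 2 between the types at P14. The filter to genes above the median brightness left out Nr2f2, Emx2, Sp8 and Fgfr3. Among the members kept, 2 were called in the 4-stage mean, 1 at E18, 2 at P14 and 0 between P14 and E18 or P3 in CPN. For the difference in change from E18, 1 was called. No member that was kept lost a call with this filter. The mean of all probe sets called 2 between P14 and P3 in CPN. Array weights called 1 in the postnatal mean, 3 at P3, 2 at P6, 0 at P14, 2 between CTPN and CPN, 0 between P14 and E18 in CSMN, 4 between P14 and P3 in CPN and 0 for the difference in change from E18. Over all genes they called 3176 at P3 against 159, 875 at P6 against 195 and 2 at P14 against 253. Between CTPN and CPN they called 588 against 193. The counts were 259 against 2751 between P14 and E18 in CSMN and 5436 against 1480 between P14 and P3 in CPN. For the difference in change from E18 they were 184 against 943.

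Leaving out 1 array at a time, the members called ranged from 3 to 5 in the 4-stage mean, 1 to 4 in the postnatal mean, 3 to 5 at E18, 0 to 1 at P3 and at P6, and 0 to 3 at P14. They ranged from 0 to 1 between CTPN and CSMN, 0 to 2 between CTPN and CPN, 1 to 2 in CSMN and 2 to 4 in CPN between P14 and E18, and 1 to 3 in CSMN and 0 to 2 in CPN between P14 and P3. The differences in change ranged from 1 to 6 from E18 and from 0 to 3 from P3. The highest counts for both differences in change, for P14 against E18 in CSMN and for the types at P14 came without CSMN P14 replicate 1. In that fit the calls over all genes increased widely in each of these comparisons too.

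The main fit did not pair arrays by replicate number. Deviations of same-numbered arrays correlated at -0.22 to 0.59 over 28 pairs of groups, with a median of 0.08 and 13 pairs above 0.1. With the replicate number as a block, Emx1 passed in the postnatal mean (-0.51, adjusted p = 0.0375), Nr2f2 passed in the 4-stage mean (-0.80, adjusted p = 0.0487) and Rorb did not pass in the postnatal mean (-1.06, adjusted p = 0.0703), and it changed no other member's call. The causes were not tested.

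Another scaling moved the share of called genes that were higher by over 10 percentage points in several comparisons: 45.9% at E18 with quantile normalization, where it was 30.8%, and with cyclic loess 46.2% at P3 (57.2%), 44.2% at P14 (32.0%), 55.8% between CTPN and CSMN (71.4%) and 54.2% between P14 and P3 in CSMN (35.3%; 46.4% with quantile). For the difference in change it was 53.5% with quantile normalization from E18 (68.2%) and 31.3% with cyclic loess from P3 (14.3%).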
